A study of Homo sapiens with 4 samples.

Results

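UXS1 encodes UDP-glucuronate decarboxylase, the enzyme that makes UDP-xylose, and it was described here together with 9 other genes that supply sugars for glycosaminoglycan chains or build them. The 10 members were UGDH and UXS1 of UDP-sugar supply, XYLT1, XYLT2, B4GALT7, B3GALT6 and B3GAT3 of the linker, and EXTL3, EXT1 and EXT2 of the heparan sulfate chain. They were chosen by symbol because UXS1 was lower in the TBX3 knockdown libraries, and all 10 were found among the 20510 genes of the table. The difference of UXS1 is therefore given as a description with no test.

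Glycosaminoglycans are long sugar chains carried by proteoglycans of the cell surface and the matrix, where they bind growth factors and chemokines. Xylose is the first sugar on the serine of the core protein, followed by the galactoses and the glucuronate of the linker, and only then by the repeating disaccharides of heparan or chondroitin sulfate. UGDH oxidises UDP-glucose to UDP-glucuronate, and UXS1 turns UDP-glucuronate into UDP-xylose. The chain can therefore not begin on a core protein without the product of UXS1.

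RNA came from cells labelled K1, a human line derived from papillary thyroid carcinoma, grown in medium with fetal bovine serum. The control group (shCtrl, 2 libraries) carried a control hairpin, and the other group (shTBX3, 2 libraries) a short hairpin RNA against TBX3, a developmental T-box repressor. The labels give no hairpin sequence and do not say whether the cells were a clone or a pool. They call the libraries duplicates and name no separate cultures. The p-values therefore rest on a spread between libraries that may be technical. Values are FPKM, fragments scaled to transcript length and to the library's mapped fragments, so levels of different genes are compared per length.

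The target of the hairpin, TBX3, stood at 48.94 and 54.77 FPKM in shCtrl and at 27.81 and 36.99 FPKM in shTBX3. Its log2 fold change was −0.67 ± 0.17 (SE), with limma's adjusted p at 0.428 over all genes tested, so the groups did not overlap but the difference missed the threshold of 0.05. Of 8 thyroid markers, 5 were below 1 FPKM in every library, among them TG, TSHR, NKX2-1 and FOXE1. The rest of the list was low but above 1 FPKM in every library: PAX8 (1.2 to 1.88 FPKM), SLC5A5 (2.42 to 3.28 FPKM) and HHEX (2.72 to 2.88 FPKM). Most, but not all, listed markers of the labelled tissue were thus near 0. Of 10 colon epithelial markers, 4 were at 5 FPKM or more in every library, with the intestinal factor CDX2 between 116.78 and 147.75 FPKM, and 4 were below 1 FPKM in every library (CDX1, GPA33, FABP1 and MUC2). The summed level of the thyroid list ran from 7.15 to 7.85 FPKM and that of the colon list from 198.09 to 261.81 FPKM, with overlapping groups in both. CDX2 made up most of the colon sum, and the other colon markers did not behave alike. The groups overlapped in CDX1, VIL1, GPA33 and KRT20 (18.30 and 36.21 FPKM in shCtrl, 35.86 and 29.79 FPKM in shTBX3). They were apart, lower in shTBX3, in CDH17, PHGR1, LGALS4, FABP1 and MUC2. Of all genes tested, 34.6% had groups apart (19.7% lower and 14.8% higher). PHGR1 stood at 12.43 and 13.45 FPKM in shCtrl and 0.83 and 1.09 FPKM in shTBX3, and LGALS4 at 4.33 and 5.59 FPKM in shCtrl and 1.31 and 1.39 FPKM in shTBX3. FABP1 was at 0.21 and 0.20 FPKM in shCtrl and listed at 0 in both shTBX3 libraries, and MUC2 and GPA33 were at 0.58 FPKM or below throughout. The part of these markers in the difference of UXS1 was not tested. Read from the steps in which FPKM of microRNA genes move, each library had about 8600000 to 8800000 mapped fragments.

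The promoters of UXS1 and UGDH, the 2 enzymes of UDP-sugar supply, are shown as a description of their sequence. Binding of TBX3 to them was not tested. Each window runs from 250 bases before to 50 bases after a RefSeq start (GRCh38.p14), on the minus strand, 5′ to 3′, with GC boxes (GGGCGG or its reverse complement CCGCCC, overlaps allowed) in capitals. For UXS1 the most upstream of 3 windows in the table is shown. It lies at chr2:106194252-106194551 and the UGDH window at chr4:39527390-39527689.
UXS1: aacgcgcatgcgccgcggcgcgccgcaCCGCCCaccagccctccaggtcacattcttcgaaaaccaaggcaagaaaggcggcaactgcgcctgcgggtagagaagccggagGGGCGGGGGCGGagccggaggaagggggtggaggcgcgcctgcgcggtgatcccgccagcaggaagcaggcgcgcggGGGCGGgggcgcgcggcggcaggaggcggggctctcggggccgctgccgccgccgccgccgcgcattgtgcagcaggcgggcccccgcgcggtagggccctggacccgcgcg
UGDH: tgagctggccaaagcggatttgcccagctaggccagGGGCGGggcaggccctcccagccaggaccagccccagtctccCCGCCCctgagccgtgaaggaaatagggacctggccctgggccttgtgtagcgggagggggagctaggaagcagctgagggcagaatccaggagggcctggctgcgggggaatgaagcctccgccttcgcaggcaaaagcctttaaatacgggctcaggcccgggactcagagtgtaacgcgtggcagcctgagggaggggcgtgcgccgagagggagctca

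The UXS1 window shown held 4 GC boxes, 46 CpG dinucleotides and a GC content of 77.7%, and the UGDH window 2 GC boxes, 15 CpG dinucleotides and 66.7%. The other 2 UXS1 windows, at starts further downstream, held 0 GC boxes, 7 and 2 CpG dinucleotides and a GC content of 37.3% and 43.7%. The medians over the 35116 promoter windows of the RefSeq table were 14 CpG dinucleotides and 58.7%, and 44.95% of the windows held a GC box. The T-box half-site GGTGTGA, or its reverse complement TCACACC, was in 3.45% of all windows. It was in 0 of the 12 windows found for 8 members, which says only that these letters are not in these windows. EXT1 and EXTL3 had no entry.

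The annotated 3′ UTR of UXS1 is the other sequence shown, because it alone among the 9 members that passed the filter on low values held either of 2 heptamers, TGTCGTT and GTCGTTA. These heptamers came from an earlier scan of the same libraries in which UXS1 took part, so their presence in UXS1 is no independent evidence. The 3 sites lie in a 3′ UTR of 715 bases (GENCODE release 44 on GRCh37, transcript sense, heptamer in capitals). They start at bases 70, 290 and 397 of the 3′ UTR, and the heptamers lie at chr2:106710406-106710412, chr2:106710186-106710192 and chr2:106710079-106710085 on the minus strand.
UXS1 first site: tttttttgtTGTCGTTtaaagaaag
UXS1 middle site: tgttgtgacTGTCGTTgacagtttt
UXS1 last site: aataaatgaGTCGTTAtactatgca

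Of 11245 tested coding genes with an annotated 3′ UTR, 439 (3.9%) held at least 1 of the heptamers. The other 8 tested members held neither heptamer. The part of these sites in the level of UXS1 was not tested.

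UXS1 (gene 80146, chromosome 2, 106709764 to 106810757, minus strand, GRCh37) stood at 24.56 and 23.66 FPKM in the shCtrl libraries and at 5.28 and 5.17 FPKM in the shTBX3 libraries. Both knockdown values lay far below both control values, and the replicates of each group lay close together. The group means were 24.1 ± 0.636 and 5.22 ± 0.0778 FPKM (SD, n = 2 each), 4.61-fold lower in shTBX3. The fitted log2 fold change, on the log2(FPKM + 1) scale, was −2.01 ± 0.13 (SE), rank 12 from the lowest among 13924 genes tested. On the canonical transcript these values correspond to about 425 and 418 fragments in shCtrl and 91 in each shTBX3 library, so they do not rest on a few fragments. In bulk RNA, fewer cells that express a gene and less RNA per cell cannot be told apart.

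UGDH (gene 7358, chromosome 4, 39500375 to 39529931, minus strand) makes the substrate of UXS1, and it stood at 40.89 and 40.56 FPKM in shCtrl and at 30.34 and 28.36 FPKM in shTBX3. Both shTBX3 values were below both shCtrl values, with the control pair almost equal. The means were 40.7 ± 0.233 and 29.35 ± 1.40 FPKM (SD, n = 2 each), a ratio of 0.721. The log2 fold change was −0.46 ± 0.12 (SE; 95% interval −0.76 to −0.16), and limma's adjusted p over all genes was 0.458, so the difference did not pass the threshold. UGDH-AS1, on the opposite strand and overlapping UGDH, stood at 158.20, 126.21, 154.31 and 137.20 FPKM in shCtrl replicates 1 and 2 and shTBX3 replicates 1 and 2, with overlapping groups. The strandedness of the libraries is not given in the sources used here, so reads of this pair may not be separable.

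**Figure D1:**
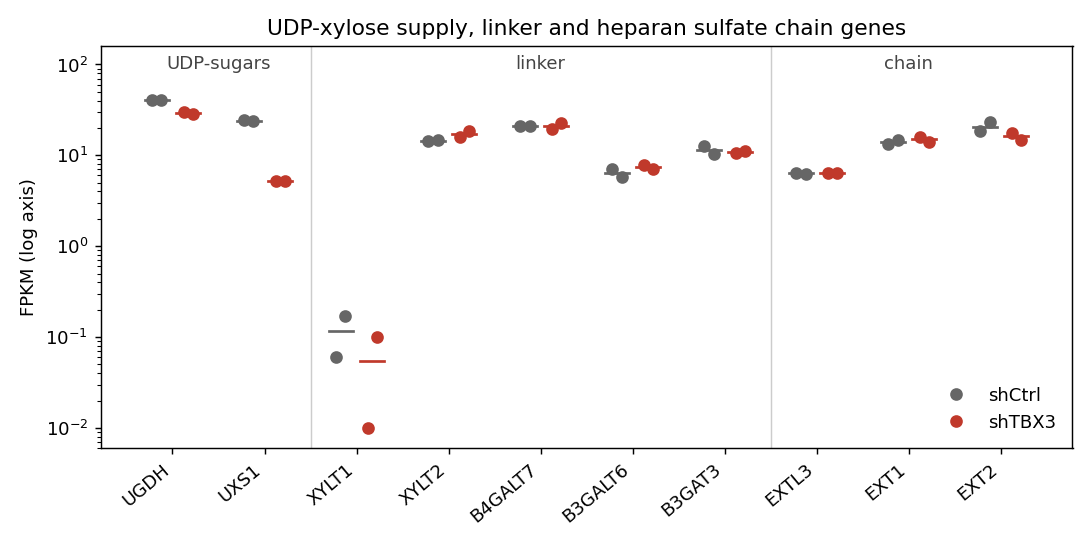
FPKM (log axis) of the 10 members by role, with shCtrl in grey and shTBX3 in red, 2 libraries each; each point is a library and each bar a group mean. The shCtrl points of UXS1 are at 24.56 and 23.66 and its shTBX3 points at 5.28 and 5.17, and XYLT1 is at 0.17 or below in every library.

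The linker begins with xylosyltransferase, which transfers xylose from UDP-xylose to the core protein and exists as XYLT1 and XYLT2. XYLT1 was at 0.06 and 0.17 FPKM in shCtrl and at 0.01 and 0.10 FPKM in shTBX3, about 1 to 15 fragments per library, so it was not tested and no fold is given. XYLT2 stood at 14.20 and 14.74 FPKM in shCtrl and at 15.86 and 18.32 FPKM in shTBX3. XYLT2 was thus the xylosyltransferase transcript present in these libraries, and its groups did not overlap, with shTBX3 the higher. Its log2 fold change was 0.22 ± 0.14 (SE; 95% interval −0.11 to 0.56; limma adjusted p = 0.880), and it was 0.12 without shTBX3 replicate 2.

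B4GALT7 adds the first galactose of the linker and stood at 20.92 and 21.24 FPKM in shCtrl and at 19.33 and 22.79 FPKM in shTBX3. The shTBX3 values bracketed the control values, and the log2 fold change was −0.01 ± 0.14 (SE; 95% interval −0.34 to 0.33). B3GALT6 adds the next galactose and stood at 7.16 and 5.76 FPKM in shCtrl and at 7.81 and 7.11 FPKM in shTBX3. B3GAT3 closes the linker with glucuronate, which it takes from the product of UGDH, and stood at 12.69 and 10.32 FPKM in shCtrl and at 10.56 and 11.19 FPKM in shTBX3. The groups of both genes overlapped, and their log2 fold changes were 0.19 ± 0.16 for B3GALT6 and −0.07 ± 0.15 (SE) for B3GAT3. The 95% intervals were −0.20 to 0.57 for B3GALT6 and −0.44 to 0.30 for B3GAT3.

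EXTL3 adds the first N-acetylglucosamine that commits a linker to heparan sulfate, and its 4 values had the narrowest range of the tested members, at 6.40 and 6.23 FPKM in shCtrl and 6.31 and 6.45 FPKM in shTBX3. Its log2 fold change was 0.01 ± 0.14 (SE; 95% interval −0.32 to 0.35). EXTL3-AS1, which overlaps EXTL3 on the opposite strand, stood at 18.88 and 15.79 FPKM in shCtrl and 19.95 and 16.58 FPKM in shTBX3, so the reads of this pair may not be separable either. EXT1 and EXT2 form the polymerase that extends the chain. EXT1 stood at 13.16 and 14.63 FPKM in shCtrl and at 15.96 and 14.04 FPKM in shTBX3, with overlapping groups and a log2 fold change of 0.10 ± 0.14. EXT2 (chromosome 11, 44117198 to 44273512, plus strand) stood at 18.42 and 23.00 FPKM in shCtrl and at 17.40 and 14.92 FPKM in shTBX3. Both shTBX3 values of EXT2 were below both control values, with means of 20.7 ± 3.24 and 16.2 ± 1.75 FPKM (SD, n = 2 each). Its log2 fold change was −0.33 ± 0.16 (SE; 95% interval −0.73 to 0.06), with a limma adjusted p of 0.816, and it was −0.18 without shCtrl replicate 2. The EXT1 level was 0.714 and 0.636 of the EXT2 level in shCtrl and 0.917 and 0.941 of it in shTBX3.

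**Figure D2:**
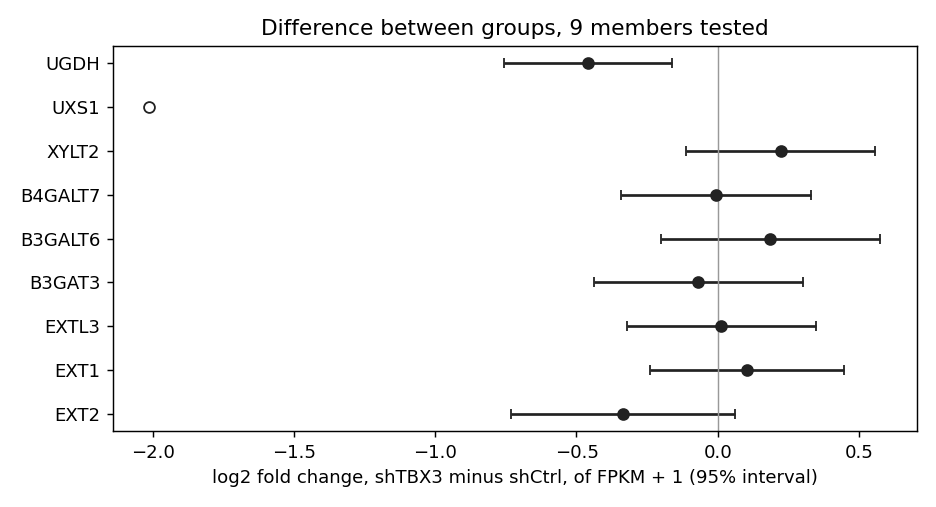
Log2 fold change of FPKM + 1, shTBX3 minus shCtrl, of the 9 members tested; filled points carry the 95% interval of the limma fit, and UXS1, whose difference chose the members, is an open point with no interval. UXS1 lies at −2.01, UGDH at −0.46 and the others between −0.33 and 0.22.

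Of the 10 members, 9 passed the filter on low values (at least 1 FPKM in 2 or more libraries) and XYLT1 did not. Limma called 1 of the 9, UXS1, at an adjusted p under 0.05, where 0.18% of all genes tested were called (0.108% lower and 0.0718% higher). Since UXS1 chose the members, nothing is read from that count. The adjusted p of the other 8 members ran from 0.458 for UGDH to 0.9997 for B4GALT7. The groups did not overlap in 4 of the 9, lower in UXS1, UGDH and EXT2 and higher in XYLT2, where 34.6% of all genes tested had groups apart (19.7% lower and 14.8% higher). The median log2 fold change of the 9 was −0.01, and that of all 13924 genes tested was also −0.01. A p that misses the threshold does not show that these levels were alike.

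In the order of levels over the 4 libraries, UGDH came first with 35.0 FPKM on average and its range (28.36 to 40.89) did not meet that of the next gene. B4GALT7 (21.1), EXT2 (18.4), XYLT2 (15.8), UXS1 (14.7) and EXT1 (14.4) followed, each with a range that overlapped the next. B3GAT3 (11.2) stood below these, then B3GALT6 (6.96) and EXTL3 (6.35), whose ranges overlapped, and XYLT1 last (0.085). The average hides the place of UXS1, which was rank 2 of the 10 in each shCtrl library and rank 9 in each shTBX3 library. Among all 16229 genes with a coding transcript, the UXS1 level exceeded 80.0% (replicate 1) and 79.3% (replicate 2) of genes in shCtrl, and 48.6% and 47.7% of genes in shTBX3.

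Inside each library, UGDH was 1.665 and 1.714 times the UXS1 level in shCtrl and 5.746 and 5.485 times in shTBX3. UXS1 was 1.730 and 1.605 times the level of XYLT2, which uses its product, in shCtrl, and 0.333 and 0.282 of it in shTBX3. Both ratios hold UXS1, whose difference chose the members, and they are given as a description. UXS1 made up 15.5% and 14.8% of the summed FPKM of the 10 members in shCtrl and 4.10% and 4.02% in shTBX3. All 10 members summed to 158.46 and 160.31 FPKM in shCtrl and to 128.86 and 128.45 FPKM in shTBX3. The 8 members without UXS1 and UGDH summed to 93.01 and 96.09 FPKM in shCtrl and to 93.24 and 94.92 FPKM in shTBX3. These shTBX3 sums lay within the control sums, but they leave out UGDH, which was lower in both shTBX3 libraries. They therefore do not describe all members other than UXS1.

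The wider pathway was read from 6 lists of 117 genes, of which 76 were expressed well enough to test. Limma called 0 of these 76 at an adjusted p under 0.05, where 0.18% of all genes were called. At an unadjusted p under 0.05 there were 6 of 76 (5 lower and 1 higher), where 6.67% of all genes tested reached that limit (4.65% lower and 2.03% higher). The log2 fold change was negative in 45 and positive in 31 of the 76 (59.2% negative), where 53.1% of all genes tested were negative. That share over all genes is also the one to set beside the counts of each list below. The median of the 76 was −0.05 beside −0.01 for all genes. The 5 lower genes were GFPT1, EXTL2, CHPF2, TGFBR3 and CD44, and the higher gene was GPC4, which passed the filter on low values only through the group where it was high. The groups were apart in 18 lower and 11 higher genes of the 76, where 19.7% of all genes tested were apart and lower and 14.8% apart and higher. These counts lie near the background.

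Upstream of the linker, the list of sugar and sulfate donor supply had 15 genes tested, 8 lower and 7 higher (median log2 fold change −0.03). SLC35B2, the Golgi transporter of the sulfate donor PAPS, was the highest of the list at 60.06 and 60.99 FPKM in shCtrl and 63.29 and 58.53 FPKM in shTBX3. Its groups overlapped. GFPT1, which opens the hexosamine pathway, stood at 18.48 and 22.11 FPKM in shCtrl and 14 and 16.05 FPKM in shTBX3 (log2 fold change −0.41 ± 0.15, limma adjusted p = 0.684). PAPSS2, which makes PAPS, stood at 32.96 and 42.78 FPKM in shCtrl and 20.68 and 31.02 FPKM in shTBX3 (log2 fold change −0.55 ± 0.23, limma adjusted p = 0.749). The PAPSS2 value was −0.27 without shTBX3 replicate 1, −0.83 without shTBX3 replicate 2 and −0.37 without shCtrl replicate 2. Neither gene passed the test. Both were named for the smallest p among genes of the list with groups apart and a higher mean of at least 5 FPKM. That their shTBX3 values lay below the control values is therefore no finding. The same rule named CHPF2, CHSY1, XXYLT1, TGFBR3, CD44, HPSE and SUMF1 below, and their groups are apart by that choice.

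Heparan sulfate extension and modification had 10 genes tested of 22 listed, 8 lower and 2 higher (median log2 fold change −0.09). NDST1, which swaps acetyl for sulfate on glucosamine, stood at 12.29 and 10.88 FPKM in shCtrl and 11.77 and 12.01 FPKM in shTBX3. HS6ST1, a 6-O-sulfotransferase, stood at 13.34 and 9.83 FPKM in shCtrl and 10.84 and 9.51 FPKM in shTBX3. Neither gene had groups apart. EXTL2, a glycosyltransferase that acts on the linker and was named after its values were seen, stood at 2.97 and 3.51 FPKM in shCtrl and at 1.55 and 1.81 FPKM in shTBX3 (log2 fold change −0.66 ± 0.18, limma adjusted p = 0.469).

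Chondroitin and dermatan sulfate synthesis starts from the same linker, and 11 of 16 genes were tested, 6 lower and 5 higher (median log2 fold change −0.04). CHPF, a chondroitin polymerizing factor, was the highest at 85.80 and 81.25 FPKM in shCtrl and 93.58 and 87.97 FPKM in shTBX3. CHST14, the dermatan 4-O-sulfotransferase, stood at 11.56 and 12.47 FPKM in shCtrl and 12.65 and 10.18 FPKM in shTBX3. CHPF lay higher in both shTBX3 libraries (limma adjusted p = 0.937), and the CHST14 groups overlapped. CHPF2 stood at 6.24 and 7.75 FPKM in shCtrl and 4.51 and 5.30 FPKM in shTBX3, and the chondroitin synthase CHSY1 at 7.59 and 6.91 FPKM in shCtrl and 8.93 and 9.67 FPKM in shTBX3. Neither gene passed the test, with log2 fold changes of −0.43 ± 0.17 and 0.32 ± 0.14 (SE) and limma adjusted p of 0.704 and 0.775.

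Other users of UDP-xylose or UDP-glucuronate had 10 genes tested of 17, 2 lower and 8 higher (median log2 fold change 0.06). HAS3, a hyaluronan synthase that uses UDP-glucuronate, stood at 21.58 and 20.94 FPKM in shCtrl and 19.73 and 24.11 FPKM in shTBX3. GYLTL1B, a transferase of xylose and glucuronate on dystroglycan, stood at 19.67 and 20.25 FPKM in shCtrl and 19.38 and 22.94 FPKM in shTBX3. XXYLT1, which adds xylose to the O-glucose glycans of Notch, stood at 16.11 and 17.24 FPKM in shCtrl and 17.49 and 20.75 FPKM in shTBX3. Only XXYLT1 of these 3 had groups apart, at a log2 fold change of 0.18 ± 0.14 (SE, limma adjusted p = 0.923). The XXYLT1 value was 0.07 without shTBX3 replicate 2 and 0.30 without shTBX3 replicate 1.

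Proteoglycan core proteins had 14 of 31 genes tested, 8 lower and 6 higher (median log2 fold change −0.07), and they held the lowest values of the wider pathway. TGFBR3, the part-time proteoglycan betaglycan that presents TGF-beta, stood at 5.95 and 7.93 FPKM in shCtrl and at 2.83 and 3.41 FPKM in shTBX3. CD44, a hyaluronan receptor with glycosaminoglycan-bearing forms, stood at 24.26 and 39.61 FPKM in shCtrl and at 10.90 and 22.40 FPKM in shTBX3. Both shTBX3 values lay below both control values in each gene. The log2 fold changes were −0.94 ± 0.19 for TGFBR3 and −0.94 ± 0.36 (SE) for CD44, and the limma adjusted p were 0.229 and 0.703. GPC4, a glypican named after its values were seen, stood at 0.45 and 0.50 FPKM in shCtrl and at 1.34 and 1.83 FPKM in shTBX3, and it passed the filter on low values only through the shTBX3 libraries, so nothing is read from its difference. Leaving out single shTBX3 or shCtrl libraries moved the CD44 value between −1.43 and −0.45. AGRN, agrin of the basement membrane, and APLP2 were the highest core proteins, AGRN at 98.88 and 94.68 FPKM in shCtrl and 86.58 and 95.13 FPKM in shTBX3. APLP2 stood at 69.81 and 81.25 FPKM in shCtrl and 79.86 and 63.75 FPKM in shTBX3, and the groups of AGRN and APLP2 overlapped.

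Lysosomal and other breakdown genes were all expressed, 16 of 16 tested, 13 lower and 3 higher. Their log2 fold changes ran from −0.23 to 0.08 (median −0.09). Of all genes tested, 83.45% had an absolute log2 fold change under 0.3, so a band of this size is common. GLB1, lysosomal beta-galactosidase, stood at 31.61 and 35.70 FPKM in shCtrl and 33.56 and 34.77 FPKM in shTBX3, and its groups overlapped. HPSE, heparanase, stood at 6.99 and 6.49 FPKM in shCtrl and 5.95 and 5.81 FPKM in shTBX3, and SUMF1, which activates sulfatases, at 6.95 and 6.55 FPKM in shCtrl and 5.05 and 6.23 FPKM in shTBX3. Both were lower in the shTBX3 libraries without passing the test (limma adjusted p of 0.925 and 0.907).

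**Figure D3:**
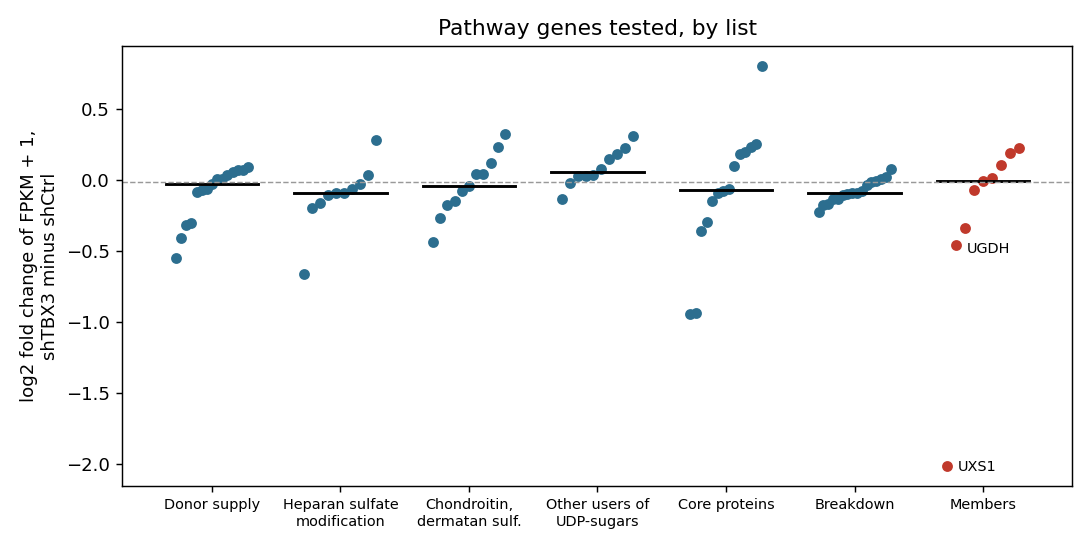
Log2 fold change of FPKM + 1, shTBX3 minus shCtrl, of every tested gene (points) in the 6 pathway lists (blue) and among the members (red); black bars are medians and the dashed line is the median of all genes tested, −0.01. The lowest pathway values are those of TGFBR3 and CD44, both −0.94, above UXS1 at −2.01.

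Neighbours of UXS1 on chromosome 2 were taken from the genes of the table, which may lack nearer ones. None of the 3 tested neighbours had both shTBX3 values below both control values. NCK2, an adaptor protein gene 199.0 kb away, stood at 14.30 and 18.47 FPKM in shCtrl and 15.51 and 22.88 FPKM in shTBX3. FHL2, a LIM domain protein gene 654.8 kb away, stood at 43.44 and 41.79 FPKM in shCtrl and 54.91 and 50.47 FPKM in shTBX3 (log2 fold change 0.30 ± 0.12, limma adjusted p = 0.748). C2orf49 stood at 6.32 and 7.37 FPKM in shCtrl and 7.68 and 6.19 FPKM in shTBX3. FHL2 was higher in both shTBX3 libraries, and the groups of the other 2 overlapped. On the other side RGPD3, ST6GAL2 and GACAT1 were at 1.03 FPKM or below in every library and were not tested.

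**Figure D4:**
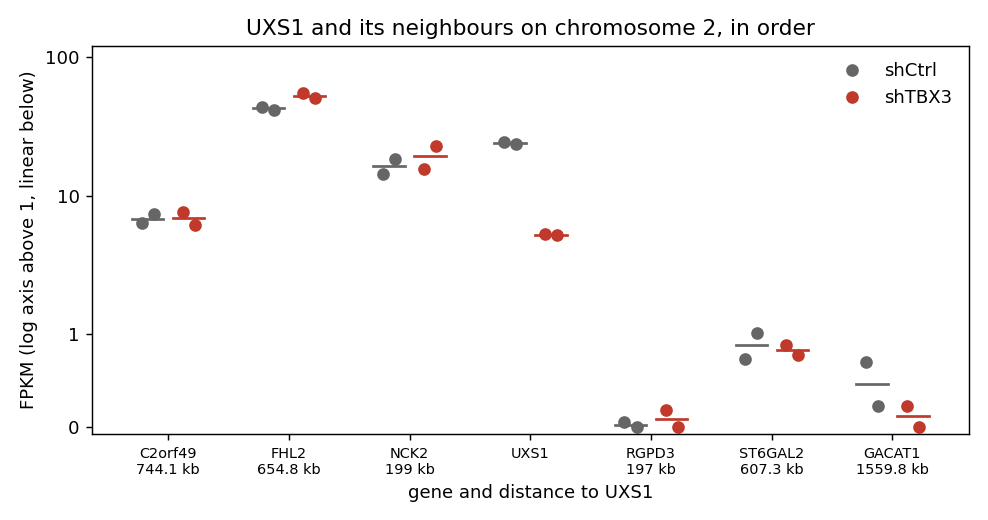
FPKM (log axis above 1, linear below) of UXS1 and of the 3 nearest genes of the table on each side, in chromosome order, with the distance to UXS1 in kb; points are libraries (shCtrl grey, shTBX3 red, 2 each) and bars are group means. UXS1 averages 24.1 in shCtrl and 5.22 in shTBX3, while both shTBX3 points of FHL2 lie above its shCtrl points and the NCK2 groups overlap.

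The 5 genes whose centred log2(FPKM + 1) values lay nearest to those of UXS1 over the 4 libraries were SNORD59A, MIR5094, SNORA22, RNU5E-1 and CXCL1, at root mean square distances from 0.01 to 0.18. The first 4 are small RNAs listed at 0 in both shTBX3 libraries and at 4.29 FPKM or below in shCtrl, so their likeness rests on few fragments. Among coding genes, a choice made after these values were seen, the nearest were CXCL1, CXCL3, EEF1A2, AK3 and PCP4, at distances from 0.18 to 0.22. CXCL1, a neutrophil-attracting chemokine, stood at 48.54 and 35.88 FPKM in shCtrl and 8.72 and 10.98 FPKM in shTBX3. No other gene of the glycosaminoglycan pathway was among these, and nothing is read from that. The lowest log2 fold change among those genes was −0.94, too far from −2.01 in UXS1 for any of them to come this near.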

How the data were processed

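The deposited table gives FPKM for 4 libraries as the authors computed it. HISAT, Bowtie2, RSEM and hg19 are named in the submitters' processing notes. Versions, roles, annotation release and filters are not given in the sources. FPKM is relative to each library's total, so abundant genes that change move the values of the rest. Library sums of FPKM ran from 506448.2 to 523221.9.

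Values were tested as log2(FPKM + 1), a scale that understates changes of low genes, with limma 3.58.1 in R 4.3.3 (lmFit, eBayes with trend). Two-sided p-values were adjusted by Benjamini and Hochberg's method over the 13924 genes at 1 FPKM or more in 2 or more libraries. Ratios use mean FPKM without the pseudocount. The code of the fit was run on simulated data with known changes, drawn as independent values from the fit's own variances. That run does not measure the error of the fit in these libraries. Intervals are at 95% and are not adjusted for the number of genes.

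The members, lists and heptamers were chosen with earlier results of these data known. Named genes were the members, TBX3, and from each list any gene called, the 2 with the highest mean FPKM and up to 2 with the smallest p among genes with groups apart and a higher mean of at least 5 FPKM. They also took in the 5 genes nearest UXS1 in pattern and its 3 nearest genes of the table on each side. The table holds only genes detected in some library, so nearer genes on the chromosome may be missing from it. Some genes that this rule names are not reported here. Depth was fitted from microRNA genes at up to 6 fragments, of which 78.8% to 83.9% came out whole within 0.05 fragments. Depth, within a preset range, and a length offset were chosen per library to make this share largest. The 10% for evenly spread values at a fixed setting is therefore not a fair comparison for it. Fragments behind a gene assume its GENCODE canonical transcript and are approximate. Alternatives were other pseudocounts, filters, scalings and eBayes settings, a replicate block and each library left out. Python 3.11.15 with pandas 2.3.3 did the rest.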

Additional observations from a re-analysis of the deposited data

How the results depend on the processing

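With 2 libraries per group, the count of genes called moved with the setting: 25 as reported, 7 with a pseudocount of 0.1, 0 with no filter on low values (1249 at an unadjusted p under 0.05, limma), and 12 to 55 as single libraries were left out. The cause was not tested. The count was 12 without shTBX3 replicate 1 and 55 without shCtrl replicate 1. The split of higher and lower calls was 10 and 15 as reported, 10 and 14 under quantile normalization and 3 and 16 among genes with a mean of at least 5 FPKM. With the replicate number as a block, 132 genes were called (34 higher and 98 lower), and 2 other pathway genes, CD44 (adjusted p = 0.0370) and TGFBR3 (adjusted p = 0.0480), where 0 were called without it. No label ties same-numbered libraries together, and the deviations of same-numbered libraries correlated across genes at r = 0.26. The log2 fold change of UXS1 ran from −2.18 to −1.98 over 14 alternatives. Since UXS1 chose the members, its p under these settings is not read. None of the other 8 tested members passed in any of the 14 (adjusted p of UGDH between 0.126 and 0.963). Of 126 member values under alternatives, 118 kept their sign, and the changes of sign were in B4GALT7, B3GAT3 and EXTL3. XYLT1, at about 1 to 15 fragments per library, did not pass the filter on low values.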
